A study of Mus musculus with 8 samples.

Results

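Fatty acid oxidation, ketone body metabolism and the targets of the nuclear receptor PPARA were followed through 34 named genes in intestinal epithelial cells of mice at lactation day 5. The 34 genes were taken by symbol from the 54532 genes of a count table, and each was compared between 4 WT libraries and 4 Rank-knockout libraries, 1 mouse per library. Rank (gene symbol Tnfrsf11a) is the receptor of the cytokine RANKL, and per the study's methods it was removed from the intestinal epithelium by Cre driven from the villin promoter acting on floxed alleles, on a C57BL/6J background. Knockout and WT dams were littermates in that breeding scheme. The labels give neither the age of the dams, the Cre status of the WT mice nor the stretch of intestine sampled. The groups therefore share strain, tissue and lactation day, and differ by genotype alone as far as the labels go. The question was how the oxidation machinery of the epithelium stands in lactating dams whose epithelium lacks RANK.

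Long-chain fatty acids are activated to acyl-CoA, pass the mitochondrial membranes as carnitine esters, and are shortened in repeated rounds of dehydrogenation, hydration, a second dehydrogenation and thiolysis. Very long and branched chains are shortened first in peroxisomes, whose enzymes pass medium-chain products on to mitochondria. PPARA, a receptor for fatty acids that binds DNA together with RXR, raises the genes of both routes, of ketone body synthesis and of several regulators in fasted liver and in the small intestine, where enterocytes meet dietary fat.

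Of the 34 genes, 30 had enough counts to be tested. By edgeR's quasi-likelihood test on all 9855 tested genes, at an adjusted p under 0.05, 10 of the 30 were lower in Rank-knockout and 1 was higher, and 19 were not called. Across all tested genes, 14.6% were called lower and 15.8% higher. The 10 lower genes were Ppargc1a, Creb3l3, Crat, Hadh, Hsd17b4, Acaa1a, Acaa1b, Pex11a, Pdk4 and Angptl4, and the higher one was Acot1. The log2 fold changes (Rank-knockout minus WT) of the 30 genes had a median of -0.29, against 0.02 over all tested genes, and 23 of them were negative. The 34 genes were chosen with earlier results of these data known, so these contrasts with all genes are descriptions and not tests. In 9 of the 30 every Rank-knockout library lay below every WT library, which held for 14.3% of all tested genes, and in 1 every Rank-knockout library lay above, which held for 14.4%. With library totals in place of TMM scaling the median of all genes moved to 0.22 and that of the 30 genes to -0.09, the calls among the 30 became 5 lower and 2 higher (Hadh, Hsd17b4, Acaa1b, Pex11a and Angptl4 were lost and Bdh1 gained), and those among all genes moved from 1438 lower and 1555 higher to 859 lower and 2566 higher. Without WT replicate 2, and again without WT replicate 4, 6 genes were called lower and none higher, and without Rank-knockout replicate 1 the median of the 30 genes was -0.14.

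**Figure D1:**
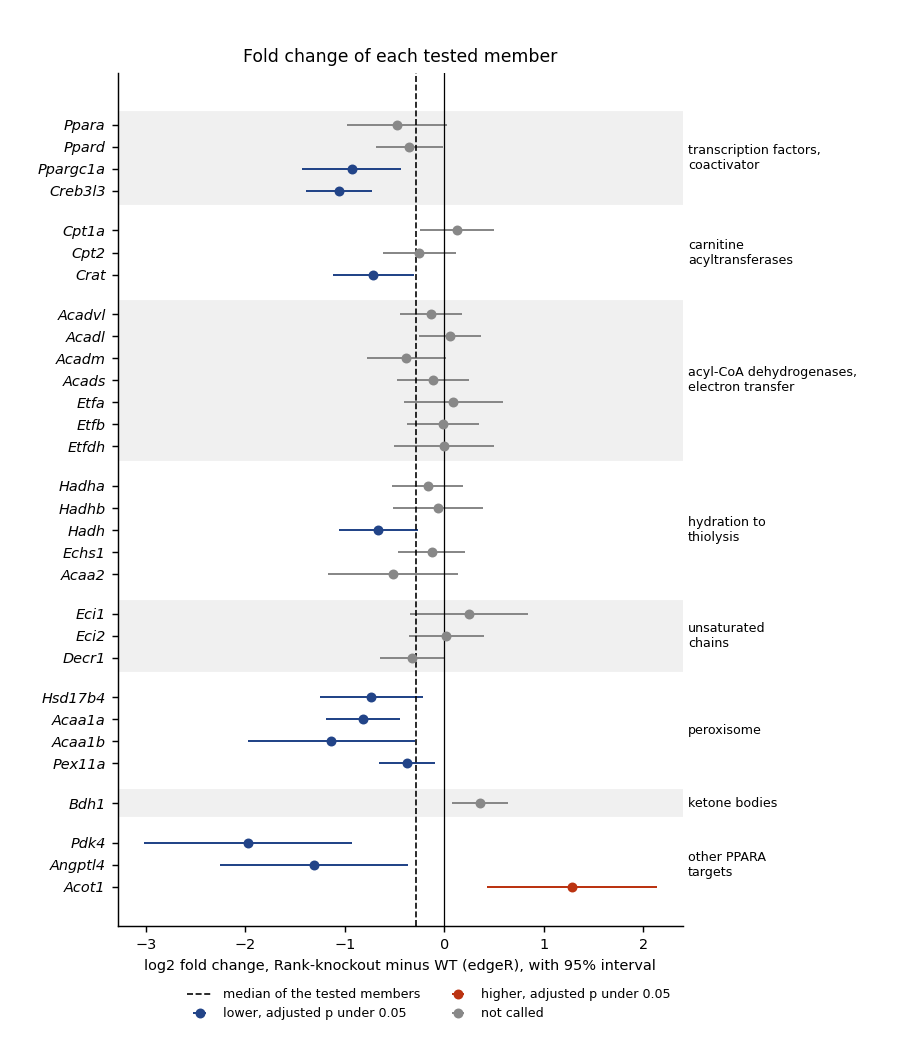
Log2 fold change of each of the 30 tested genes (x axis, Rank-knockout minus WT, edgeR) with its 95% interval, grouped by role along the y axis; filled colours mark adjusted p under 0.05 and the dashed line the median of the 30 genes, -0.29. All 4 tested peroxisomal genes lie left of 0, while the intervals of the 7 acyl-CoA dehydrogenase and electron transfer genes include it.

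The libraries held between 1530781 and 4335653 counts (median of the WT group 1609942.5, of the Rank-knockout group 3070751), and log2 CPM (the count relative to the scaled library size) correlated across genes between libraries of one genotype with r from 0.949 to 0.976. Tnfrsf11a itself gave 113, 196, 61 and 111 counts in WT and 128, 112, 79 and 179 in Rank-knockout. Its CPM was 41.3 to 76.8 in WT and 27.0 to 46.8 in Rank-knockout, a log2 change of -0.67 ± 0.22 (SE, edgeR adjusted p = 0.032). Tags of this kit come from the 3′ end of a transcript, so they count a transcript whose deleted part lies elsewhere, and which part was deleted is not given in the sources used here. As a check of the labelled cell type, Vil1 and the other villus enterocyte markers were all read, 15 of 15. Their summed level ran from 20600 to 29550 CPM in WT and from 10690 to 16020 in Rank-knockout, and all 15 were called lower (median log2 change -1.07). Markers of crypt cells and the cell cycle moved the other way, from 633 to 945 CPM in WT to 1230 to 2300 in Rank-knockout, with 14 of 16 called higher (median 1.18). In bulk samples fewer cells of a type and less RNA per cell cannot be told apart, and the part of this shift in the results that follow was not tested.

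Other cell types that oxidise fat or could be carried along were looked at in the same way. Of 8 adipocyte markers, Adipoq, Lep, Retn, Cfd and Plin4 were at 0 in every library, and the sum of 127.8 to 155.8 CPM in WT and 55.6 to 71.8 in Rank-knockout came nearly all from Lipe, a lipase that other tissues use too. Macrophage markers summed to 6.10 to 21.8 CPM in WT and 5.23 to 17.5 in Rank-knockout with Adgre1 at 0, and stromal and muscle markers to 9.91 to 18.1 and 5.80 to 19.7 with Lum and Tagln at 0. T cell markers summed to 230 to 355 CPM in WT and 163 to 268 in Rank-knockout. Plasma cell markers summed to 295 to 396 and 272 to 301 CPM, most of it from Sdc1 and Xbp1, which epithelial cells also express. Of the 4 tested, Igkc, the kappa light chain, was called lower (44.1 ± 17.1 CPM in WT, 11.7 ± 7.61 in Rank-knockout, log2 change -1.90, edgeR adjusted p = 0.0091) without overlap, and Igha, at 59.1 ± 28.0 and 21.1 ± 13.2 CPM, was not called (adjusted p = 0.066). Goblet markers summed to 12820 to 17080 CPM in WT and 6932 to 9589 in Rank-knockout, with 4 of 7 called lower and 1 higher. Paneth markers had 5 of 8 called higher, at 2085 to 4446 CPM in WT and 2889 to 9281 in Rank-knockout. Enteroendocrine markers summed to 519.8 to 628 and 415 to 725 CPM. Of 8 tested, 1 was called lower (12.5%, against 14.6% of all tested genes), Nts (log2 change -1.37, edgeR adjusted p = 0.020), and 0 higher. Tuft markers summed to 23.0 to 33.0 and 19.0 to 30.5 CPM, with Gnat3 at 0. Genes of the proximal small intestine gave 5428 to 8756 CPM in WT and 2983 to 5328 in Rank-knockout, with 3 of 7 tested lower (among them Lct, which is also in the villus list) and Bhmt at 0. Ileal genes gave 2590 to 2843 and 1305 to 1614 CPM, most of it from Clec2h and Muc3, with 4 of 6 tested lower (among them Mep1a, which is also in the villus list) and Fgf15 at 0. Fabp6, the ileal bile acid binding protein, went the other way but was too low to be tested, with 13 counts in all of WT and 85 in all of Rank-knockout (1.24 ± 0.755 and 5.64 ± 2.85 CPM, SD, n = 4), every Rank-knockout library being above every WT library.

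Among the transcriptional regulators, Creb3l3 and Ppargc1a were lower in Rank-knockout. Creb3l3 (chr10:81084324-81098874, minus strand, GRCm38) encodes CREBH, a membrane-bound transcription factor of liver and small intestine that acts with PPARA on lipid genes. It was read at 519.8, 624, 507 and 581 CPM in WT replicates 1 to 4 and at 199, 280, 297 and 298 CPM in Rank-knockout replicates 1 to 4. The groups did not overlap, and even the highest Rank-knockout library stood well under the lowest WT library. The log2 change was -1.06 ± 0.16 (SE, edgeR adjusted p = 0.00031), a 2.08-fold lower level.

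The start of Creb3l3 is shown because among the called genes with a window at hand it is the one whose promoter held letters close to the direct repeat that PPAR and RXR bind. RefSeq windows of GRCm38.p6, from 250 bases before to 50 after a gene's start, were found for 28 of the 34 genes, and both strands were searched for AGGTCANAGGTCA with at most 2 mismatches. The letters were present in 3 of the 28 genes (10.7%) and in 4.4% of all 27025 genes with a window. The Creb3l3 window, chr10:81092542-81092841 on the minus strand, has its match in capitals, starting 209 bases before the start that RefSeq gives, with 2 mismatches. This window lies inside the GENCODE gene model given above, which begins further upstream, so it is the promoter of the RefSeq start alone.
Creb3l3: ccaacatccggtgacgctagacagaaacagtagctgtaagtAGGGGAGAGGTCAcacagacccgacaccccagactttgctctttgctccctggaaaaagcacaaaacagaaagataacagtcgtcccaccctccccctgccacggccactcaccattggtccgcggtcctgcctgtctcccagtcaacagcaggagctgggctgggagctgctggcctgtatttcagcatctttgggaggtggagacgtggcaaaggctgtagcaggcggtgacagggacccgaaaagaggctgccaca
The other two matches lay in the windows of Echs1 and Etfa, both with 2 mismatches and neither gene called. They are given as the matched letters, 83 and 77 bases before the start, the one of Etfa being on the opposite strand.
Echs1: AGGTCACGGGTCC
Etfa: TTACCTTTGCCCT
The single unit of that repeat, AGGTCA, stood without mismatch in 6 of the 28 genes (21.4%) and in 18.1% of all genes. The estrogen-related receptor element TNAAGGTCA, which contains this unit, was in 0 of the 28 and in 1.43% of all genes. A match describes the letters of a window and is not a measured binding site.

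Ppargc1a (chr5:51454250-51567726, minus strand) encodes PGC-1α, the coactivator that partners PPARA and the estrogen-related receptors on mitochondrial genes. It stood at 151, 218, 200.5 and 241 CPM in WT and at 80.2, 89.0, 85.6 and 169 CPM in Rank-knockout. Rank-knockout replicate 4 was far above the other three and reached into the WT range, so the groups overlapped. For Ppargc1a the log2 change came to -0.93 ± 0.23 (edgeR adjusted p = 0.0085), and it was -1.26 without that library.

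Of the nuclear receptors themselves, none was called. Ppara was at 56.4, 72.1, 40.6 and 57.4 CPM in WT and at 32.4, 35.0, 32.1 and 64.1 CPM in Rank-knockout, where replicate 4 again stood apart at the level of WT. Its log2 change of -0.48 (95% interval -0.98 to 0.02) had an edgeR adjusted p of 0.14, and without Rank-knockout replicate 4 it was -0.79 with an adjusted p of 0.0066. Ppard, the more widely expressed paralogue, was at 63.9, 47.3, 50.1 and 46.2 CPM in WT and at 38.1, 43.5, 39.7 and 40.8 CPM in Rank-knockout. Every Rank-knockout library was below every WT library, by little, and the log2 change of -0.35 ± 0.16 was not called (edgeR adjusted p = 0.11). Pparg, the receptor of adipose tissue, had between 3 and 12 counts per library and was not tested, at 4.76, 2.77, 7.45 and 5.94 CPM in WT and 2.53, 1.86, 1.34 and 3.14 CPM in Rank-knockout.

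**Figure D2:**
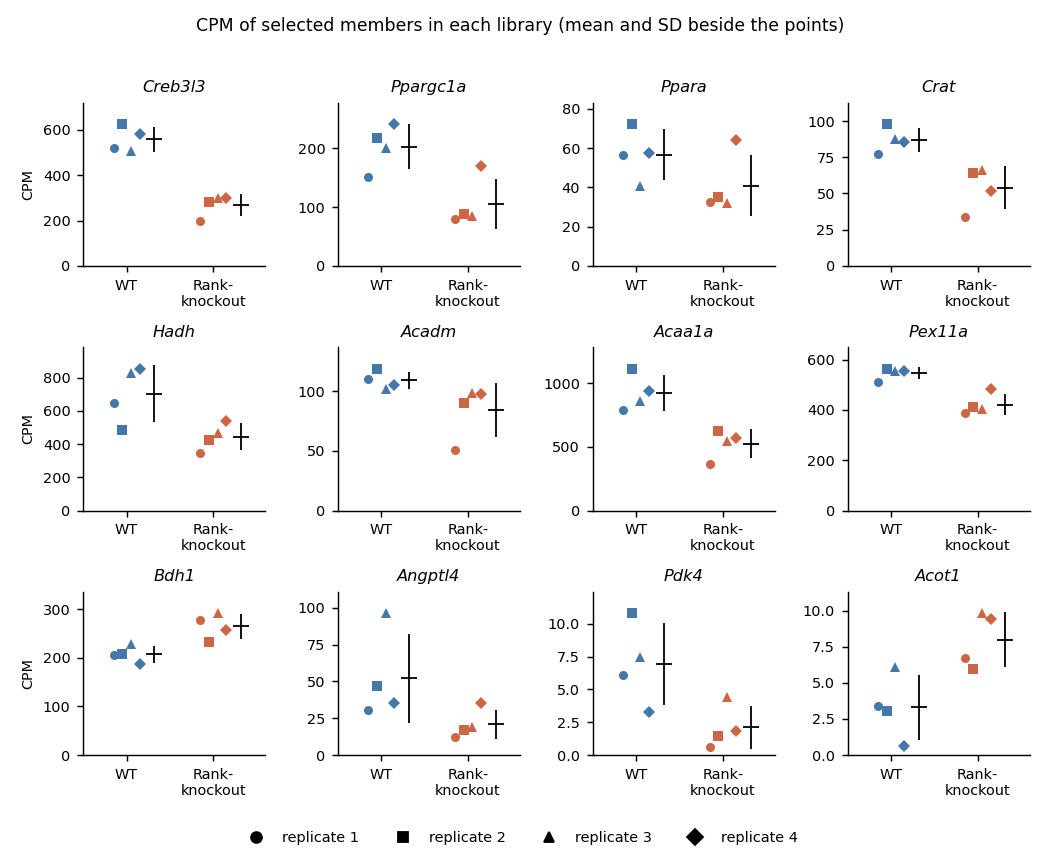
CPM (y axis, from 0) of 12 of the genes in each WT and Rank-knockout library, with the marker shape giving the replicate and the mean ± SD (n = 4) beside the points. In Creb3l3, Crat, Acaa1a, Pex11a and the uncalled Acadm every Rank-knockout library lies below every WT library, as in 14.3% of all tested genes. In the uncalled Bdh1 every one lies above, as in 14.4%. Rank-knockout replicate 4 (diamond) lies at the WT level for Ppara.

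Of the 3 carnitine acyltransferases, Crat was called lower, and Cpt1a and Cpt2, which bring long chains into mitochondria, were not called. Crat (chr2:30400471-30415813, minus strand), which moves short acyl groups and acetyl units between CoA and carnitine, gave 77.5, 97.8, 87.4 and 85.8 CPM in WT and 33.9, 64.0, 66.0 and 51.5 CPM in Rank-knockout. No library crossed between the groups, and its log2 fold change was -0.71 ± 0.19 (edgeR adjusted p = 0.011). Cpt1a, the malonyl-CoA-sensitive gate for long-chain acyl groups, ranged from 52.8 to 84.3 CPM in WT and from 57.5 to 83.2 in Rank-knockout, and its log2 change of 0.13 had a 95% interval from -0.24 to 0.50. Cpt2, which hands the chains back to CoA inside the mitochondrion, ranged from 183 to 217 CPM in WT and from 107 to 199 in Rank-knockout, with a log2 change of -0.25 (interval -0.62 to 0.11).

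The first step of the mitochondrial spiral and its electron carriers gave no call among 7 genes. Acadvl, Acadl, Acadm and Acads, the dehydrogenases for very long, long, medium and short chains, had log2 changes of -0.13, 0.06, -0.38 and -0.12. The largest of these, Acadm, was at 110.1, 118.9, 102.3 and 105 CPM in WT and at 51.2, 90.4, 98.6 and 97.5 CPM in Rank-knockout. Its groups did not overlap, but 3 of the Rank-knockout libraries lay just under WT and replicate 1 far below, and the 95% interval ran from -0.77 to 0.01 (edgeR adjusted p = 0.13). Etfa and Etfb, the subunits of the flavoprotein that takes electrons from these dehydrogenases, and Etfdh, which passes them to ubiquinone, changed by 0.09, -0.01 and -0.01. Their 95% intervals ran from -0.41 to 0.59, from -0.37 to 0.35 and from -0.51 to 0.50. Etfb shares 58.1% of the 50-base windows near its 3′ ends with the overlapping gene model Gm45233, and its value is uncertain on that account.

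Of the 5 genes for the later steps of the spiral, Hadh alone was called. Hadh (chr3:131233419-131272101, minus strand), the 3-hydroxyacyl-CoA dehydrogenase for short and medium chains, was at 650.3, 487, 827 and 854 CPM in WT and at 346, 422.5, 466.5 and 541 CPM in Rank-knockout. WT replicate 2 lay under Rank-knockout replicate 4, so the groups overlapped by that pair. The log2 change was -0.66 ± 0.19 (edgeR adjusted p = 0.014), and with library totals it was -0.47 with an adjusted p of 0.057. Hadha and Hadhb, the subunits of the trifunctional protein for long chains, changed by -0.17 and -0.06, and Echs1, the short-chain hydratase, by -0.12, each with an interval that included 0. Hadhb shares 35.4% of its 3′ windows with the gene models Gm13910 and Gm9108. Acaa2, the mitochondrial thiolase, ranged from 154 to 334 CPM in WT and from 82.1 to 200.3 in Rank-knockout, and its change of -0.51 had an interval from -1.17 to 0.14 (edgeR adjusted p = 0.21), although with no filter on low counts Acaa2 was called at an adjusted p of 0.032.

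The auxiliary enzymes that prepare unsaturated chains were not called. Eci1 and Eci2, isomerases that shift double bonds, changed by 0.25 and 0.02, with intervals from -0.35 to 0.84 and from -0.36 to 0.40. Decr1, the mitochondrial dienoyl-CoA reductase, was at 243, 273.5, 242.5 and 234 CPM in WT and at 143, 221, 212 and 219 CPM in Rank-knockout. Its libraries did not overlap between genotypes, and the log2 change was -0.33 ± 0.15 (edgeR adjusted p = 0.12).

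The peroxisomal genes were called lower in 4 of 4 tested, against 14.6% of all tested genes. In all 4 every Rank-knockout library lay below every WT library, which held for 14.3% of all tested genes. The call of Acaa1a held in all 17 alternative settings, and those of Hsd17b4, Acaa1b and Pex11a were lost in 7, 8 and 11. The summed level of the peroxisomal genes was 1622, 2074, 1677 and 1824 CPM in WT and 832, 1262, 1175 and 1209 CPM in Rank-knockout. Acaa1a (chr9:119339676-119350299, plus strand), the peroxisomal thiolase that ends each round, was at 788, 1115, 863 and 941 CPM in WT and at 366, 624, 547 and 570.3 CPM in Rank-knockout. The lowest WT library exceeded the highest Rank-knockout library, and the log2 change was -0.82 ± 0.17 (edgeR adjusted p = 0.0028), a 1.76-fold lower level. Its neighbour Acaa1b (chr9:119148023-119157093, minus strand), a second thiolase gene and a strong PPARA target in rodent liver, was at 211, 239.6, 132 and 195 CPM in WT and at 36.4, 130.3, 118 and 74.3 CPM in Rank-knockout. WT replicate 3 and Rank-knockout replicate 2 all but met. Its log2 change was -1.14 ± 0.37 (edgeR adjusted p = 0.047). The call of Acaa1b was lost on leaving out any one of WT replicates 1, 2 and 4 and Rank-knockout replicates 3 and 4, at adjusted p from 0.0502 to 0.14. The thiolases share 31.6% and 38.8% of their 3′ windows with each other, so reads may be split or dropped between them.

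Hsd17b4, the peroxisomal multifunctional enzyme for branched and very long chains, was at 108, 152, 123 and 126 CPM in WT and at 40.0, 94.5, 104 and 71.1 CPM in Rank-knockout. The groups stayed apart by a narrow margin between WT replicate 1 and Rank-knockout replicate 3, and the log2 change was -0.74 ± 0.24 (edgeR adjusted p = 0.034). It was not called once WT replicate 2, 3 or 4, or Rank-knockout replicate 4, was left out, at adjusted p from 0.062 to 0.095. Pex11a (chr7:79735957-79743131, minus strand), which elongates peroxisomes before they divide, was among the most evenly read of the genes, at 512, 564, 555 and 556 CPM in WT and at 387, 411, 404 and 485 CPM in Rank-knockout. The groups did not overlap, and the change was the smallest of those called, at -0.37 ± 0.13 on the log2 scale (edgeR adjusted p = 0.042). Leaving out any library except Rank-knockout replicate 4 ended the Pex11a call, at adjusted p from 0.056 to 0.11, and with library totals its change was -0.18 with an adjusted p of 0.29 and with no filter -0.34 with 0.16. Ehhadh, the L-bifunctional enzyme, had 4 to 33 counts per library and was not tested.

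Ketone body metabolism was represented by Bdh1, the mitochondrial dehydrogenase that interconverts acetoacetate and 3-hydroxybutyrate. It was at 205, 208, 229 and 187 CPM in WT and at 279, 232, 292 and 258 CPM in Rank-knockout. Bdh1 was the one gene of the set with every Rank-knockout library above every WT library. Its log2 change of 0.36 ± 0.13 was not called (edgeR adjusted p = 0.053), and it was called with library totals at 0.55 (adjusted p = 0.0048) and when the 50 most abundant genes were left out of the library sizes, at 0.48 (adjusted p = 0.011). A filter at mean CPM 5 and thinning to the shallowest library also gave a call for Bdh1, at adjusted p of 0.048 and 0.030.

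The remaining PPARA targets moved apart from each other. Pdk4 (chr6:5483351-5496309, minus strand), the kinase that shuts pyruvate dehydrogenase when fat is burned, gave 9, 43, 11 and 5 counts in WT, or 6.12, 10.8, 7.45 and 3.30 CPM, and 3, 4, 10 and 7 counts in Rank-knockout, or 0.632, 1.49, 4.46 and 1.83 CPM. Rank-knockout replicate 3 overlapped WT replicate 4. The log2 change was -1.97 ± 0.49 (edgeR adjusted p = 0.0074), the largest of the set and resting on few counts. Pdk4 passed the filter on low counts in 15 of the 17 alternative settings and was called lower in each of them.

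Angptl4 (chr17:33773750-33781830, minus strand), a secreted inhibitor of lipoprotein lipase, was at 30.6, 46.8, 96.2 and 35.0 CPM in WT and at 12.2, 16.8, 19.2 and 35.0 CPM in Rank-knockout. Rank-knockout replicate 4 reached the level of WT replicate 4 and exceeded WT replicate 1, and WT replicate 3 stood above all others. The fitted log2 change of Angptl4 was -1.31 ± 0.42 (edgeR adjusted p = 0.041). The Angptl4 call was lost on removal of any single library except WT replicate 1 and Rank-knockout replicate 4, at adjusted p from 0.057 to 0.11. Acot1 (chr12:84009490-84018371, plus strand), a cytosolic thioesterase that splits long-chain acyl-CoA, was the one gene called higher, with 5, 12, 9 and 1 counts in WT and 32, 16, 22 and 36 in Rank-knockout. These counts correspond to 3.40, 3.02, 6.10 and 0.660 CPM against 6.74, 5.96, 9.81 and 9.41 CPM, with WT replicate 3 just inside the Rank-knockout range. The log2 change was 1.28 ± 0.40 (edgeR adjusted p = 0.024), and Acot1 was not called when WT replicate 1, 2 or 4, or Rank-knockout replicate 3, was removed, at adjusted p from 0.055 to 0.076. Its mitochondrial neighbour Acot2, with which it shares 7.21% of its 3′ windows, had 1 to 13 counts per library, and Cyp4a10, a fatty acid ω-hydroxylase used as a PPARA reporter in liver, had 1 to 10, so neither was tested. Acot1 itself passed the filter in 16 of the 17 alternative settings.

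**Figure D3:**
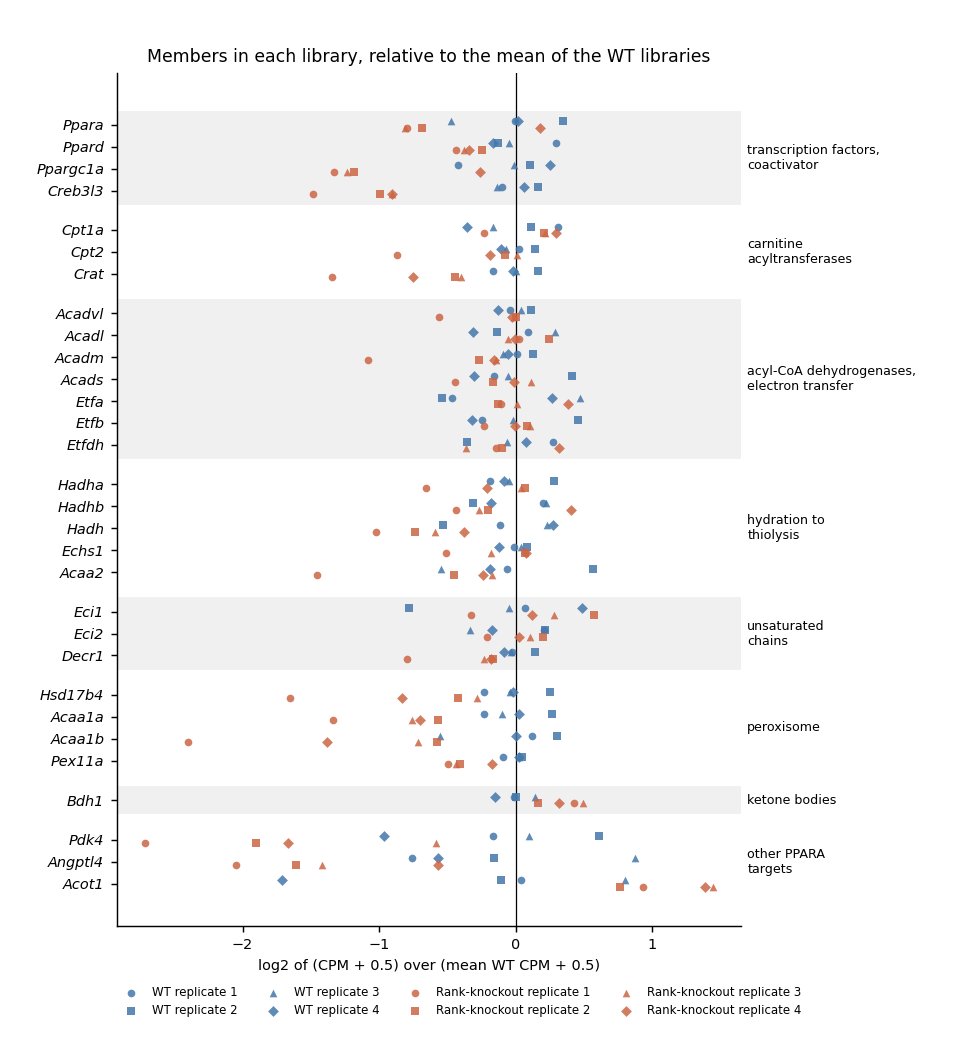
Each of the 30 tested genes in each library, as the log2 ratio of its CPM to the mean WT CPM with 0.5 added to both (x axis), with genes grouped by role (y axis), colour for genotype and marker shape for replicate. Rank-knockout replicate 1 (circle) is the lowest Rank-knockout library in 24 of the 30 genes.

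Rank-knockout replicate 1 was the lowest of the 4 Rank-knockout libraries in 24 of the 30 tested genes (80%) and the highest in 0, whereas it was the lowest in 25.4% of all tested genes. WT replicate 2 was the highest WT library in 18 of the 30 (60%) and in 29.3% of all tested genes. Summed over all 34 genes, the level was 5861, 6972, 6257 and 6217 CPM in WT and 3647, 4991, 5069 and 5156 CPM in Rank-knockout, so that every Rank-knockout library lay below every WT library and replicate 1 stood lowest. Abundant genes weigh most in this sum, and 19 of the 30 tested genes were not called. The most abundant in WT were called lower, with mean CPM in WT and Rank-knockout of 927 and 527 for Acaa1a, 705 and 444 for Hadh, and 558 and 268 for Creb3l3. The library labelled Rank-knockout replicate 1 also had the highest sum of crypt and cell cycle markers, 2300 CPM, against 1230 to 2105 in the other three, while its villus enterocyte sum of 11360 CPM was within their range of 10690 to 16020. It was also lowest of its group in proximal markers (2983 CPM against 4116 to 5328) and in goblet markers (6932 against 8821 to 9589), and highest in ileal markers (1614 against 1305 to 1334). Rank-knockout replicate 4, which overlapped WT in Ppara, Ppargc1a and Angptl4, had the highest villus enterocyte sum of its group (16020 CPM against 10690 to 12830), the lowest crypt and cell cycle sum (1230 against 1747 to 2300) and the lowest Paneth sum (2889 against 5532 to 9281). WT replicate 2 was the deepest library and had the lowest villus enterocyte sum of the WT group, 20600 CPM. Whether these values bear on the gene set was not tested.

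The rest of the pathway was read from lists of related genes that are not among the 34, also chosen with earlier results of these data known. Other enzymes of peroxisomal oxidation were called lower in 9 of 16 tested (56.2%) and higher in 0, with a median log2 change of -0.56. Over all tested genes 14.6% were called lower and 15.8% higher. The 3 with the smallest p were Scp2, which encodes a peroxisomal thiolase and lipid carrier (WT 558 ± 69.4 CPM, Rank-knockout 267 ± 14.6 CPM, SD, n = 4), Phyh, the first enzyme of phytanic acid oxidation (422 ± 34.4 and 204 ± 23.0), and Cat, the catalase that clears peroxide (625 ± 92.3 and 278 ± 71.0). Their log2 changes were -1.06, -1.05 and -1.17, each with no overlap between genotypes. Peroxisome biogenesis genes had 2 of 14 lower (14.3%, near the 14.6% of all genes) and 0 higher with a median of -0.20, which was 0.00099 with library totals and -0.070 when the 50 most abundant genes were left out of the library sizes. The 2 called were Pex16 (-0.58, edgeR adjusted p = 0.016) and Pex3 (-0.62, adjusted p = 0.039), which insert peroxisomal membrane proteins.

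Fatty acid activation and carnitine handling had 6 of 12 lower (50%) and 0 higher, against 14.6% and 15.8% of all tested genes, with a median of -0.56. Crot, the peroxisomal carnitine octanoyltransferase, was at 102 ± 2.30 CPM in WT and 45.6 ± 7.36 in Rank-knockout, a log2 change of -1.17 (edgeR adjusted p = 0.00018). Slc27a4, the fatty acid transport protein of enterocytes, was at 2251 ± 249.8 and 1172 ± 203 CPM, a change of -0.94. Acsl5, an acyl-CoA synthetase of the villus, was at 2560 ± 492 and 1552 ± 289.8 CPM, a change of -0.72. Activation serves esterification of absorbed fat as well as oxidation, and these genes do not separate the uses.

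Other PPARA targets had 6 of 18 lower (33.3%) and 2 higher (11.1%), against 14.6% and 15.8% of all tested genes, with a median of -0.42. The leading lower genes were Cidec, which enlarges lipid droplets (-1.07), Acot12, an acyl-CoA thioesterase (-1.14), and Vnn1, a pantetheinase on the enterocyte surface (-1.47). The higher ones were Pank1, a kinase of CoA synthesis (0.78, edgeR adjusted p = 0.014), and Fads2, the delta-6 desaturase of polyunsaturated fatty acids (0.76, adjusted p = 0.042). Cyp4a14, Cyp4a32, Cyp4a12a, Cyp4a12b, Ucp3 and Fgf21 were at 0 in every library.

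Among the mitochondrial lists, other mitochondrial acyl-CoA enzymes had 0 of 19 lower and 2 higher with a median of 0.25, the 2 being Pcca, a propionyl-CoA carboxylase subunit (1.04, edgeR adjusted p = 0.024), and Mecr, a reductase of mitochondrial fatty acid synthesis rather than oxidation (0.61, adjusted p = 0.033). The tricarboxylic acid cycle and its link to the respiratory chain had 1 of 17 lower, Ogdh (-0.71), and 1 higher, Idh2 (0.57), with a median that rounds to 0. The pyruvate dehydrogenase switch had 1 of 10 lower, the kinase Pdk2 (-0.80), and 1 higher, the complex subunit Pdhx (0.68), with a median of 0.16. Other ketone body genes had 1 of 6 lower, the monocarboxylate carrier Slc16a6 (-0.56), and 1 higher, Aacs, which activates acetoacetate in the cytosol (1.08), with a median of 0.12. The shares called in these lists, 0% to 16.7% lower and 5.88% to 16.7% higher, were near or under the 14.6% and 15.8% of all tested genes. The medians depend on the scaling. With library totals, where all genes had a median of 0.22, the other mitochondrial enzymes stood at 0.45, the pyruvate dehydrogenase switch at 0.36, the other ketone body genes at 0.32 and the tricarboxylic acid cycle at 0.20, beside -0.37 for other peroxisomal oxidation, -0.36 for fatty acid activation and -0.23 for other PPARA targets.

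Transcription factors and coregulators beyond the 34 genes had 4 of 20 lower (20%) and 3 higher (15%), near the 14.6% and 15.8% of all tested genes, with a median of 0.02, as over all genes. The lower ones with the smallest p were the coactivator Ncoa2 (-0.76), Rxra, the DNA-binding partner of PPARA (-0.42), and the sterol receptor Nr1h3 (-0.43). Rxra stood at 219 ± 11.6 CPM in WT and 164 ± 11.3 in Rank-knockout without overlap (edgeR adjusted p = 0.021). The higher ones were Pprc1, a growth-linked relative of PGC-1α (1.24), Tfam, which packages mitochondrial DNA (0.78), and the orphan receptor Esrrg (0.86). Pprc1 was thus higher at 12.3 ± 4.85 CPM in WT and 28.8 ± 10.2 in Rank-knockout, while Ppargc1a was lower.

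**Figure D4:**
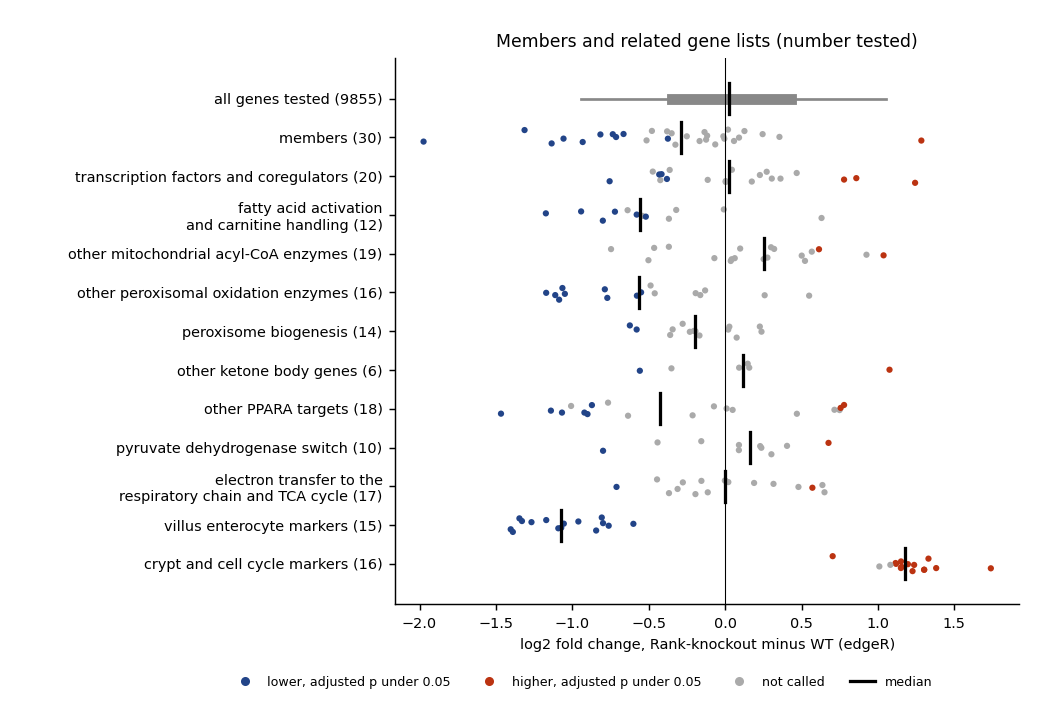
Log2 fold change (x axis, Rank-knockout minus WT) of each tested gene of the 34 and of the related lists (y axis, number tested in brackets), with black bars at the medians; for all genes the thick and thin lines span the middle 50% and 90%. The other peroxisomal oxidation enzymes and the activation list centre at -0.56, and peroxisome biogenesis at -0.20. The other mitochondrial enzymes centre at 0.25, villus enterocyte markers at -1.07 and crypt and cell cycle markers at 1.18.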

How the data were processed

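Libraries of 4 WT and 4 Rank-knockout mice were made by the QuantSeq 3′ mRNA-seq FWD protocol and read as single 50-base reads. The authors trimmed reads with BBDuk, removed ribosomal, mitochondrial, phiX and adapter sequence with bowtie2, aligned to GRCm38 (mm10 in the labels) with STAR and counted sense-strand reads per gene with featureCounts. The deposited values are raw counts per gene. No molecular identifiers are described, and PCR copies may be counted. Symbols were found for 54409 of 54532 identifiers, and positions came from GENCODE M21.

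Counts were tested with edgeR 4.0.16 (R 4.3.3): filterByExpr, TMM scaling, robust quasi-likelihood F-test on genotype, Benjamini-Hochberg adjustment over 9855 genes, threshold 0.05. SE and 95% intervals derive from the F statistic, and CPM uses TMM-adjusted library sizes. Labels name 1 mouse per library without stating separate extraction, so p-values measure the spread between these libraries. Totals ran from 1530781 to 4335653 counts. Shared 3′ windows are 50-base stretches of the last 500 bases of a gene's GENCODE transcripts that also occur in another gene.

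The 34 genes and the lists were chosen with earlier results of these data known. Named are all 34 genes and, per list and direction, up to 3 called genes with the smallest p. Alternatives were RLE and library-total scaling, scaling without the 50 most abundant genes, no filter, DESeq2 1.42.0, a filter at mean CPM 5, limma-voom (limma 3.58.1), a replicate block, thinning to the shallowest library and leaving out each library. Some genes of these pathways are not reported here.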

Additional observations from a re-analysis of the deposited data

Results flagged for a closer look

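In groups of 4 libraries, a library was taken to stand apart where its gap to the nearest other exceeded Dixon's 95% limit. Chance gives this in about 1 in 20 groups, or 3.3 of the 66 examined, and 5 were found. Ppara was at 64.1 CPM in Rank-knockout replicate 4 against 32.1 to 35.0 in its group otherwise, and Ppargc1a was at 169 CPM in the same library against 80.2 to 89.0. Acadvl was at 142 CPM in Rank-knockout replicate 1 against 206 to 209.9 in the others, and Decr1 was at 143 CPM there against 212 to 221. The total of WT replicate 2, 4335653 counts, stood above 1530781 to 1616024 in the other WT libraries.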

How the results depend on the processing

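In 17 alternative settings, 5 of the 10 lower calls held wherever the gene was tested (Ppargc1a, Creb3l3, Crat, Acaa1a and Pdk4), and no called gene changed sign. The count of lower genes among the 34 was 5 with library totals and 6 without the 50 most abundant genes in the library sizes, and the count of higher genes was 2 in both and 2 with the filter at mean CPM 5. Over all genes, library totals gave 2566 higher and 859 lower. Leaving out 1 library gave 6 to 9 lower and 0 to 1 higher of the 34, medians of -0.35 to -0.14 and, over all genes, 1020 to 1718 higher and 1097 to 1564 lower. Same-numbered libraries deviated together with r of 0.052, 0.15, -0.14 and 0.32, so the numbers were not taken to pair them. With a replicate block, 1708 genes were higher and 1602 lower, and among the 34 genes 1 was higher and 9 lower, Acaa1b being lost (adjusted p = 0.10).

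Uncalled genes near 0 changed sign in some settings, and the cause was not tested. With library totals Acadvl was 0.061, Acads 0.081, Etfb 0.19, Etfdh 0.19, Hadha 0.029, Hadhb 0.13 and Echs1 0.072. Without the 50 most abundant genes Acads was 0.012, Etfb 0.12, Etfdh 0.12, Hadhb 0.063 and Echs1 0.0040. Etfb was 0.020 and Etfdh 0.032 with no filter, 0.019 and 0.027 with limma-voom, Etfdh was 7.51e-05 with the filter at mean CPM 5, and Etfb was 0.019 with the replicate block and 0.053 after thinning. Among settings that left out 1 library, Etfdh ranged from -0.16 to 0.077, Etfb from -0.14 to 0.18, Acads from -0.24 to 0.050, Hadhb from -0.29 to 0.051, Acadl from -0.061 to 0.15, Etfa from -0.093 to 0.28, Eci1 from -0.022 to 0.44 and Eci2 from -0.094 to 0.11.

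Thinning to 1530781 counts left 7 lower calls, with Hsd17b4 and Pex11a not called and Pdk4 not tested. Tags from the 3′ end do not tell isoforms apart.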
